A study of Mus musculus with 22 samples.

Results

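Gene expression was compared between lung and circulating memory T helper cells of one origin, named ex-Tcirc in the labels, where Tcirc stands for circulating memory cells. The comparison rests on 2 RNA-seq libraries labelled tissue ex-Tcirc and 2 labelled circulating ex-Tcirc, 4 of the 8 RNA libraries and of the 22 samples of the series. Genes were compared where their mean FPKM (fragments scaled to gene length and to the mapped fragments of a library) over these 4 libraries was at least 20 and where all 4 listed them above 0. Of 55291 gene names, 2520 reached the mean and 1605 were also above 0 throughout, 942 of them protein-coding and 352 pseudogenes. The requirement removed 915 names, of which 716 were at 0 in circulating replicate 2 alone, 74 in circulating replicate 1 alone and 77 in both circulating libraries. A gene thus had to be detected in the shallow circulating libraries to be compared.

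All 4 libraries are labelled as CD4+ T cells of female mice aged 6 to 10 weeks, with Balb/c as the host strain and lung as the tissue, although the protocols speak of blood for circulating cells. In the study, effector Th2 cells from OT-II creERT2 or DO11.10 donors, both transgenic for a T cell receptor against ovalbumin (OVA), were given intravenously to BALB/c-nu/nu mice or C57BL/6 (Ly5.2) mice that had been sensitized with OVA through the nose. Tamoxifen and an OVA rechallenge followed, and cells were sorted by flow cytometry on congenic markers and CD69 at day 49 in one experiment. In the other, lung tissue-resident memory (TRM) and Tcirc cells of DO11.10 origin were moved into further BALB/c-nu/nu recipients, which lack a thymus and have few T cells of their own, and were collected at day 71. Each population gave 3000 to 50000 cells. The RNA labels do not say which experiment a library belongs to, do not define ex-Tcirc, and do not say whether replicates came from separate mice, so the p-values measure only the spread between libraries, which may be technical.

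Memory T cells leave an organ when they express receptors for the lipid sphingosine-1-phosphate, which is abundant in blood and lymph. The transcription factor Klf2 switches on the gene of this receptor, S1pr1, and the surface protein CD69 removes the receptor from the membrane, which keeps cells in the tissue. Th2 cells are directed by Gata3 and produce type 2 cytokines in allergic airways. Replication-dependent histone genes are short, mostly clustered genes whose messages lack a poly(A) tail and are made mainly while DNA is copied. Small nucleolar RNAs (snoRNAs) guide chemical modification of ribosomal RNA and are mostly cut from introns of host genes.

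Histone genes were listed lower in tissue and short structured RNAs higher, as given in detail further on. As the histone genes share features of their promoters, the 250 bases before the annotated start of 3 of them are shown, read from RefSeq (GRCm38.p6) on the strand of the gene, and chosen because they are the histone genes that passed a test over 7 libraries given further on. H3c8 encodes a histone H3 (chr13:23535168-23535417, plus strand), H1f5 a linker histone (chr13:21780626-21780875, minus strand) and H4c4 a histone H4 (chr13:23581318-23581567, plus strand). Capitals mark each CCAAT and each TATAAA, on either strand (as ATTGG or TTTATA on the other).
H3c8: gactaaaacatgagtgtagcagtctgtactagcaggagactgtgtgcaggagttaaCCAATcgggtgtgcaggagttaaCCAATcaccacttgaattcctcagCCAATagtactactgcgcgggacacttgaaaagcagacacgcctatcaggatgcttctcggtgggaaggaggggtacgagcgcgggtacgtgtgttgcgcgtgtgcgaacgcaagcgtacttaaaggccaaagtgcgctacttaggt
H1f5: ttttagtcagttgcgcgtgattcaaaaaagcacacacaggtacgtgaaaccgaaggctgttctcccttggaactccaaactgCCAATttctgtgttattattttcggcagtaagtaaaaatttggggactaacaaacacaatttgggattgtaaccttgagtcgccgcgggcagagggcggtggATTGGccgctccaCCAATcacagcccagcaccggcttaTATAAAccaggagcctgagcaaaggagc
H4c4: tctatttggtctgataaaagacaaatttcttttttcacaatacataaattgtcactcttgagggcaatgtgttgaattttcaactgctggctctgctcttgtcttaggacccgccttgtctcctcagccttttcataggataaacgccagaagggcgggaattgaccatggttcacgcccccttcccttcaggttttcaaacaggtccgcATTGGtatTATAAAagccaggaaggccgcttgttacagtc
H3c8 and H1f5 each held 3 matches to CCAAT and H4c4 held 1, and TATAAA occurred in H1f5 and H4c4 but not in this window of H3c8. Of the 33 compared histone genes with a promoter in the table, 27 (81.8%) held CCAAT, against 33.8% of all 32851 promoter windows of the same length. TATAAA was found in 17 of 33 (51.5%), against 12.4% of all windows. Both motifs occurred in 14 of 33 (42.4%), against 4.40% of all. Of the 33 windows, 29 lay on chromosome 13 and 4 overlapped another of them, so they are not independent, and no CCAAT match overlapped a TATAAA match. A match describes the letters only.

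The libraries differed in depth, which was read from the FPKM that a single fragment is worth. Tissue ex-Tcirc corresponded to about 2760000 and 6610000 fragments and circulating ex-Tcirc to about 997000 and 462000, with 30488 and 32617 names above 0 in tissue and 12785 and 7042 in circulating cells. On log2(FPKM + 1), the tissue replicates correlated across the 1605 genes with r = 0.970, and the circulating replicates with r = 0.561. Their log2 differences had an SD of 0.552 in tissue and 1.84 in circulating cells. Names without a RefSeq match took 60.3% to 71.1% of the summed FPKM. T cell markers summed to 4063 and 4849 FPKM in tissue and 4278 and 4532 in circulating cells, with all 12 above 0 in tissue and 11 and 8 of 12 in circulating replicates 1 and 2. Markers of monocytes, macrophages and dendritic cells summed to 252 and 70.3 FPKM in tissue and 946 and 308 in circulating cells. Of these 16, Marco and Siglecf were at 0 in all 4 libraries, and Adgre1, C1qa, C1qb, Itgax, Flt3 and Xcr1 in both circulating ones, while at least 1 tissue library listed them above 0. B cell markers gave 517 and 97.7 against 673 and 7.62, and epithelial markers 107 and 4.92 against 623 and 0. In such bulk samples, fewer cells of a type and less RNA per cell cannot be told apart, and the part of other cells in the results below was not tested.

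**Figure D1:**
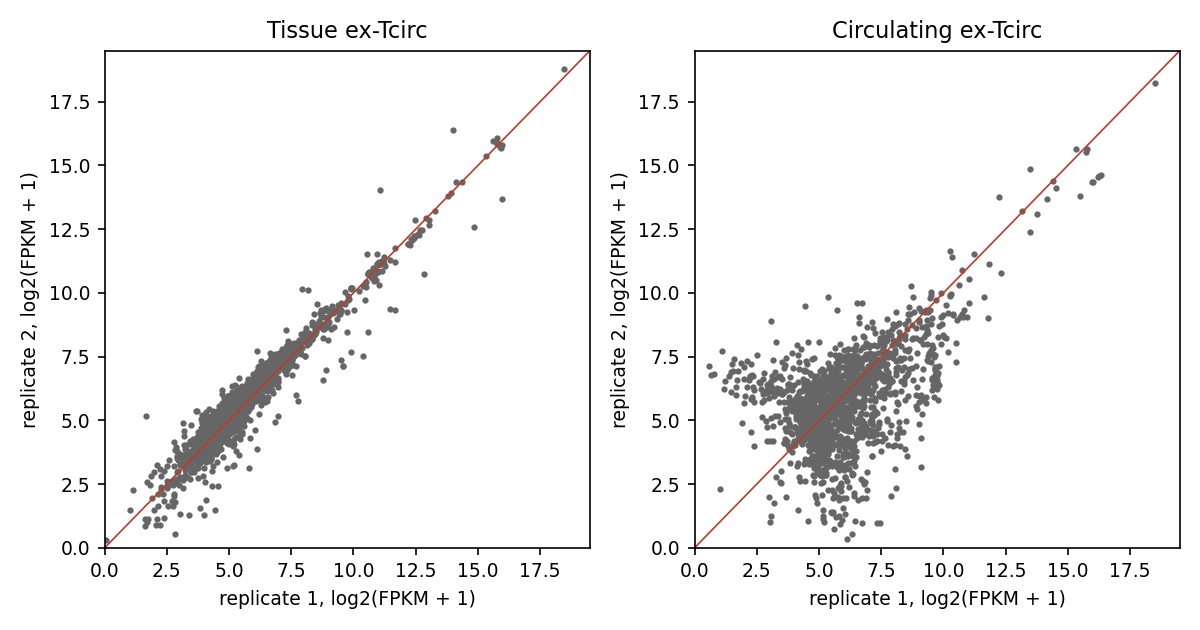
Log2(FPKM + 1) of the 1605 compared genes in replicate 1 (horizontal) and replicate 2 (vertical), for tissue ex-Tcirc (left) and circulating ex-Tcirc (right); each point is a gene and the line marks equality. The tissue points lie close to the line (r = 0.970) and the circulating points scatter widely (r = 0.561).

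The receptor genes bear on the donor of these cells. DO11.10 cells carry a transgenic receptor with the beta segment Trbv13-2 and an alpha segment of the Trav5 family, and OT-II cells carry one with segments of the Trbv12 and Trav14 families. Trbv13-2 was listed at 1583 and 1708 FPKM in tissue and 1314 and 2747 in circulating ex-Tcirc, which was 84.2%, 84.0%, 90.2% and 99.1% of the FPKM of all beta variable segments. Trbv12-1 was at 0 in all 4 libraries, while Trbv12-2, a neighbour of Trbv13-2 in the locus, was at 247 and 287 in tissue and 86.2 and 0 in circulating cells, and the source of its fragments was not tested. Trav5-4 and its near-identical copies Trav5d-4 and Trav5n-4 together made up 91.6% and 91.0% of alpha variable FPKM in tissue and 60.2% and 74.0% in circulating cells. Segments of the Trav14 family made up 0.844% and 1.40% in tissue and 8.34% and 0% in circulating cells. Near-identical copies share reads, so only the family sum is read here. The 4 libraries thus shared a leading beta segment, and so did the 3 usable ex-TRM libraries, with Trbv13-2 at 84.0%, 84.9% and 87.7%.

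Testing all 1605 genes with limma on log2(FPKM + 1), fitted to these 4 libraries with Benjamini-Hochberg adjustment, called 0 genes (0%) at an adjusted p under 0.05. The lowest adjusted p was 0.174. Before adjustment 238 genes lay under 0.05, 114 of them higher and 124 lower in tissue. With 2 libraries against 2, the smallest p that an exact two-sided permutation test of a single gene can give is 0.333. The median log2 difference, tissue minus circulating, over all genes was -0.26. As a description, the FPKM of both tissue libraries exceeded that of both circulating ones, without overlap, for 294 genes (18.3% of those compared), and the reverse held for 531 (33.1%). A gap of at least 2-fold between the nearest libraries was found for 141 genes higher in tissue (8.79%) and 115 lower in tissue (7.17%). The balance of the directions moved with the filter and with the scaling. With zeros allowed at the same minimum mean, the median log2 difference over 2520 genes was 0.33. Of these, 187 were higher and 96 lower in tissue at an unadjusted p under 0.05 by limma. After median-of-ratios scaling the 2-fold counts were 172 higher and 73 lower and the median log2 difference was -0.04, after rescaling to TPM they were 113 and 205 with a median of -0.71, and after scaling to the protein-coding sum 125 and 169 with a median of -0.62.

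The same genes were tested in a fit that borrowed its estimate of spread from 7 libraries, adding tissue ex-TRM (2) and circulating ex-TRM replicate 2. It left out circulating ex-TRM replicate 1, which listed 917 names above 0. Here 9 genes were higher in tissue (0.561%) and 6 lower (0.374%) at an adjusted p under 0.05. Higher were Snord57, Snord21, Il2ra, the joining segments Traj18 and Trbj1-3 and 4 names with predicted symbols, Gm24525, Gm24616, Gm26440 and Gm28872. Lower were Klf2, H3c8, H1f5, H4c4, Myo1f and the pseudogene Gm7367. All 15 adjusted p-values lay between 0.0392 and 0.0485, just under the threshold. Only Klf2, Traj18, Trbj1-3 and Gm28872 had a mean of at least 20 FPKM in each ex-Tcirc group. The others reached the minimum mean through a single group, so their direction was fixed in advance. Pooling assumes that the circulating ex-Tcirc libraries vary like the others, which they did not, and the same fit with all 8 libraries called 0 genes.

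**Figure D2:**
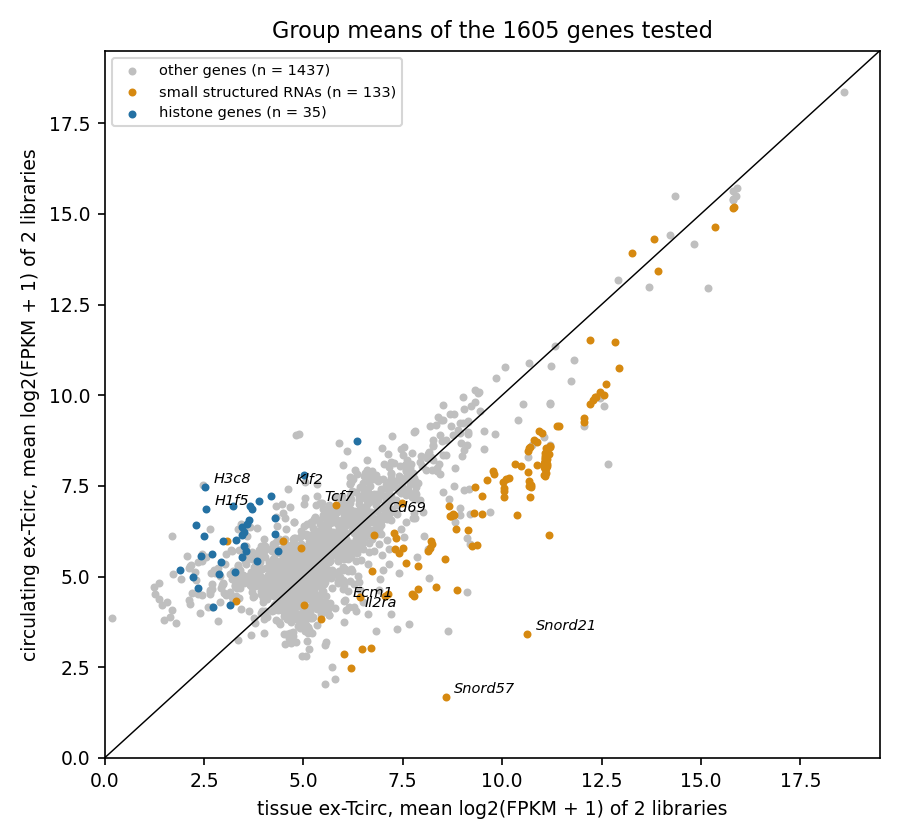
Mean log2(FPKM + 1) of the 2 tissue (horizontal) and the 2 circulating (vertical) ex-Tcirc libraries for the 1605 compared genes; blue points are the 35 histone genes, orange points 133 short structured RNA and ribosomal RNA names, grey points the 1437 others, and the line marks equality. All 35 histone genes lie above the line, and 126 of the 133 structured RNAs lie below it.

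Of the lists described here, histone genes had the lowest median in tissue relative to circulating cells. Of 56 replication-dependent histone genes in the files, 41 reached the mean and 35 were compared. Their median FPKM was 8.99 and 9.001 in tissue and 151 and 25.5 in circulating cells. All 35 log2 differences were negative, from -4.94 to -1.06 with a median of -2.78, against -0.26 over all genes. Without overlap between groups, 31 of 35 were lower in tissue (33.1% of all genes) and 24 of 35 showed the 2-fold gap (7.17% of all). These counts are a description only, since 33 of the 35 reached the mean of 20 FPKM through the circulating libraries alone and so had to be lower in tissue. The 2 that reached it in both groups were H1f2 (90.7 and 70.2 in tissue against 591 and 311) and H2ac20 (34.3 and 28.1 against 293 and 166). With no minimum mean, 52 of the 55 histone genes listed above 0 in at least 1 of the 4 libraries had a negative log2 difference, against 14.4% of all 36301 such names, most of which were higher in the deeper tissue libraries. The 4 that overlapped were H3c10, H3c11, H1f4 and H2ac10, which were high in circulating replicate 1 and below both tissue libraries in replicate 2. All 35 stayed negative after each of the 3 other scalings. Histone genes resemble each other, so fragments may be divided among copies (H3c10 and H3c11 had the same value, 0.946 FPKM, in circulating replicate 2), and the 35 are not separate pieces of evidence.

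H3c8 was at 4.86 and 4.74 FPKM in tissue and 132 and 238 in circulating cells, a log2 difference of -4.94 ± 0.45 (SE). H1f5 was at 3.86 and 6.14 in tissue and 116 and 116 in circulating cells (-4.31 ± 0.44), and H3c15, a histone H3 gene on chromosome 3, at 3.85 and 3.99 against 131 and 55.2 (-4.13 ± 0.66). H4c4 was at 15.7 and 21.6 against 100.2 and 93.9 (-2.34 ± 0.36). In each of the 4 genes both circulating libraries were far above both tissue libraries. The adjusted p was 0.174 for H3c8, 0.187 for H1f5, 0.191 for H3c15 and 0.191 for H4c4 in limma on the 4 libraries. These values do not rest on single fragments in the circulating libraries, since by the length of the gene H3c8 corresponded to about 6.61 and 15.4 fragments in tissue and 64.6 and 54.1 in circulating cells, and H1f5 to 8.45 and 32.3 against 92.1 and 42.4. For the list as a whole the median was 12.3 and 28.8 fragments in tissue and 84.5 in circulating replicate 1, but only 6.05 in circulating replicate 2, so many of its histone values in that library are imprecise.

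The size of the histone difference depended on the circulating library. Its median was -4.17 without circulating replicate 2 and -1.39 without circulating replicate 1. Other genes of dividing cells could be compared only in part, with 3 of 38 cell cycle genes compared. Top2a, a topoisomerase that dividing cells make, had 7.40 and 5.72 FPKM in tissue against 46.5 and 21.1 in circulating cells, a gap over 2-fold. Top2a reached the minimum mean through the circulating libraries alone, so it had to be lower in tissue. Mki67, the gene of the proliferation marker Ki-67, was at 5.78 and 7.27 in tissue and 71.3 and 0 in circulating cells and was not compared. Hmgb2 was at 48.5 and 54.8 against 168 and 30.0, and Mcm7 at 28.5 and 19.7 against 25.3 and 9.18. Circulating replicate 1 was therefore the higher circulating library for each of these 4 cell cycle genes, as it was for the histone median.

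Of 30 genes of egress and recirculation 15 were compared, 11 with a negative and 4 with a positive log2 difference, where 969 of all 1605 genes were negative. Their median was -0.62 against -0.26 over all genes. Lower in tissue without overlap were 7 of 15, where the background was 33.1%, and 4 of 15 had the 2-fold gap, where it was 7.17%. The counts of negative differences were 9, 13 and 13 of 15 after median-of-ratios, TPM and protein-coding scaling. Klf2 (chromosome 8, 72319062 to 72321654) was at 26.1 and 20.9 FPKM in tissue and 183 and 159 in circulating cells. Its log2 difference was -2.82 ± 0.36 (SE), about 7.06-fold on the log2(FPKM + 1) scale, with an adjusted p of 0.191 in limma on the 4 libraries and 0.0392 over 7. The 2 Klf2 groups were far apart, and the replicates of each lay close together.

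Tcf7, which encodes the memory and self-renewal factor TCF1, was at 34.99 and 43.4 FPKM in tissue and 145 and 106 in circulating cells (-1.65 ± 0.39, adjusted p = 0.292 by limma). The following list members were chosen after their values had been seen. Satb1, a genome organizer of T cells, was at 27.0 and 18.6 in tissue and 86.2 and 111 in circulating cells, and Itga4, the alpha-4 integrin chain, at 38.0 and 46.5 against 101 and 164. Klf3, a relative of Klf2, was at 14.8 and 7.67 against 29.4 and 106. These 3 pairs of groups did not overlap, but Klf3 reached the minimum mean through circulating cells alone and so had to be lower in tissue. At the other end, Bcl2, which protects from cell death, was at 33.9 and 54.9 in tissue and 33.3 and 10.3 in circulating cells. S1pr1, the receptor gene that Klf2 controls, was at 3.83 and 2.99 in tissue and 46.4 and 0 in circulating cells, so it was high in only one circulating library and was not compared. Ccr7, a chemokine receptor gene of recirculating cells, was listed at 0 in all 4 libraries.

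**Figure D3:**
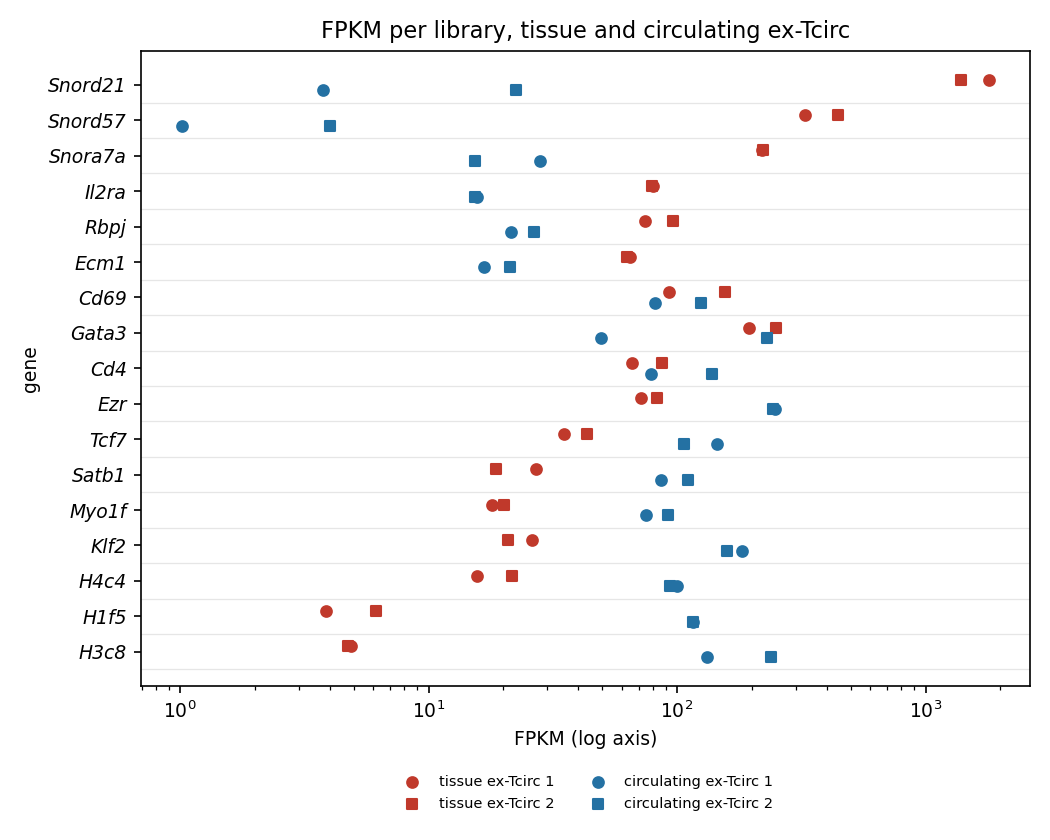
FPKM (log axis) of 17 genes in each ex-Tcirc library; red marks tissue, blue circulating, circles replicate 1 and squares replicate 2. Klf2, Tcf7, Satb1, Myo1f, Ezr and the histone genes are higher in both circulating libraries, Il2ra, Ecm1, Rbpj and the snoRNAs are higher in both tissue libraries, and Cd69, Gata3 and Cd4 overlap.

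The compared chains of the interleukin 2 receptor lay in opposite directions. Il2ra (chromosome 2, 11642792 to 11693194), whose product CD25 gives the receptor its high affinity, was at 80.3 and 79.1 FPKM in tissue and 15.6 and 15.4 in circulating cells. Its log2 difference was 2.29 ± 0.34 (SE), 4.89-fold, with an adjusted p of 0.191 in limma on the 4 libraries and 0.0485 over 7. Il2ra reached the mean of 20 FPKM through the tissue libraries alone, so it had to be higher in tissue. Il2rb, the signalling chain shared with the interleukin 15 receptor, was at 19.3 and 34.96 in tissue and 75.9 and 106 in circulating cells (-1.75 ± 0.46, adjusted p = 0.313 by limma). Neither Il2ra nor Il2rb overlapped between groups. The direction of Il2ra was the same in all 19 alternatives that gave it a value, which this lack of overlap largely fixed in advance. Il2rb was singled out after its values had been seen. The rest of the 5 compared cytokine receptor genes, Tgfbr2, Il10ra and Ifngr1, had log2 differences of -0.84, -0.79 and -0.39. Il7r, the interleukin 7 receptor of memory cells, was at 99.1 and 111 in tissue and 81.1 and 0 in circulating cells.

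Th2 genes could be compared for 6 of 35. The FPKM of Ecm1, a glycoprotein that Th2 cells secrete, was 64.9 and 63.0 in tissue against 16.8 and 21.3 in circulating cells (1.70 ± 0.35, adjusted p = 0.260 by limma). Rbpj, the DNA-binding partner of Notch, was at 74.2 and 96.1 against 21.4 and 26.5. Ecm1 and Rbpj were the 2 of 6 with the 2-fold gap, where the background was 8.79%. The lineage factor Gata3 was at 194 and 250 in tissue and 49.4 and 231 in circulating cells, so the groups overlapped, and its log2 difference of 1.03 ± 0.84 came down to -0.069 without circulating replicate 1. Maf, Epas1 and Notch1 had log2 differences of 0.50, -0.20 and -0.27. Ccr8 and Il1rl1, receptors of Th2 cells, and Cxcr6 were between 43.7 and 110 FPKM in tissue and listed at 0 in both circulating libraries. Il5 (12.0 and 12.3) and Il13 (7.37 and 4.64) were also at 0 in both circulating libraries. At these depths a 0 does not show that the genes were silent.

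Genes of residency and of recent activation gave smaller values where they could be compared. Cd69 was at 92.8 and 156 FPKM in tissue and 81.2 and 125 in circulating cells, with overlap, and its log2 difference was 0.26 ± 0.49 (adjusted p = 0.806 by limma). Rgs1, which dampens chemokine receptor signals and marks resident cells, was at 56.7 and 70.8 against 64.5 and 53.1 (0.11 ± 0.36). Of 26 residency genes 14 reached the mean and 7 were compared. Of these 7, 2 were lower in tissue without overlap, near the 33.1% of all genes, and 0 had a 2-fold gap. Cxcr6, Ccr8 and Il1rl1, given above, also belong to this list and were left out for a 0 in both circulating libraries. Others, such as Rgs2 (143 and 177 in tissue against 49.9 and 0) and Itgb1 (47.2 and 56.9 against 121 and 0), were left out for a 0 in circulating replicate 2. The list is thus described only in part. For 22 of 35 immediate early genes the median log2 difference was -0.03, and 0 had the 2-fold gap. Fos was at 458 and 667 FPKM in tissue and 352 and 434 in circulating cells, without overlap (0.50 ± 0.48), while Jun (0.24 ± 0.49) and Nr4a1 (-0.01 ± 0.51) overlapped between groups. The T cell receptor complex gave a median of 0.04 over 13 of 26 genes. Cd3e was at 178 and 234 FPKM in tissue and 209 and 306 in circulating cells, and Cd4 at 65.9 and 87.4 against 78.3 and 138. Itgae, a residency integrin, was at 0 and 1.58 in tissue and at 0 in both circulating libraries, and Cd44 was at 74.1 and 129 against 97.8 and 0.

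Actin cytoskeleton genes were compared for 30 of 45, with 21 negative log2 differences and a median of -0.28, close to that of all genes. Without overlap, 12 of 30 were lower and 1 higher in tissue (33.1% and 18.3% of all genes), and 4 of 30 were lower with the 2-fold gap (7.17% of all). The share lower without overlap lay near the background. The share with the 2-fold gap lay above it but rests on 4 genes. Myo1f, an unconventional myosin of leukocytes, was at 18.0 and 20.1 FPKM in tissue and 75.2 and 91.9 in circulating cells (-2.07 ± 0.35, adjusted p = 0.205 by limma on 4 libraries and 0.0485 over 7). Its tissue mean was under 20 FPKM, so it was compared through the circulating libraries and had to be lower in tissue. The other members with the 2-fold gap, named after their values were seen, were Ezr, which ties actin to the membrane (72.0 and 83.0 against 247 and 244), Actg1, a cytoplasmic actin (122 and 180 against 382 and 575), and Flna, an actin crosslinker (62.4 and 84.1 against 216 and 178). The medians of other lists were -0.01 for 41 ribosomal protein genes, 0.10 for 19 chromatin regulators, -0.30 for 17 splicing factors and -0.62 for the 13 protein genes of the mitochondrial genome, 7 of which were lower in tissue without overlap (33.1% of all genes). With the scaling, the medians ran from -0.47 to 0.22 for ribosomal protein genes, from -0.36 to 0.32 for chromatin regulators, from -0.49 to 0.20 for immediate early genes and from -0.43 to 0.26 for the T cell receptor complex, so they have no fixed sign. Lyz2, a lysozyme of myeloid cells, was at 114 and 29.7 in tissue and 646 and 255 in circulating cells (-2.78 ± 0.87, adjusted p = 0.322 by limma). Irf7, an interferon-induced factor, was at 9.30 and 12.8 against 52.0 and 40.2. It reached the minimum mean through circulating cells alone and so had to be lower in tissue. Among markers of other cells that were not compared, the surfactant gene Sftpc was at 44.4 and 0 in tissue and 421 and 0 in circulating cells, and the antibody gene Igkc at 281 and 41.4 against 161 and 0.

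**Figure D4:**
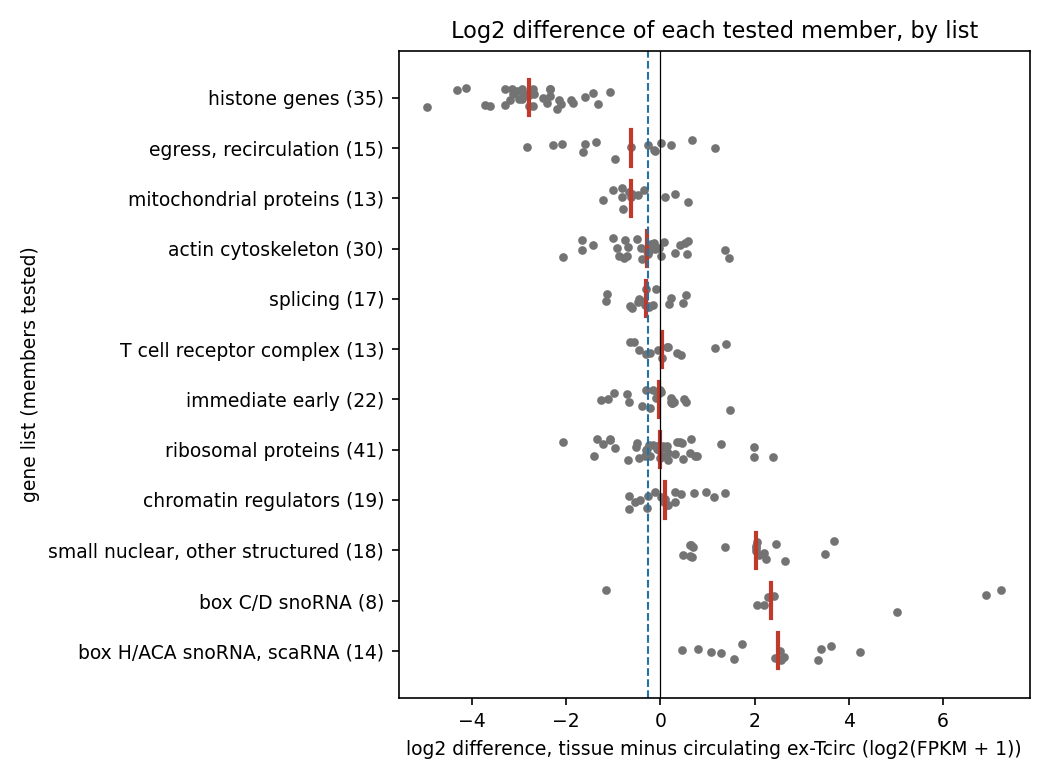
Log2 difference, tissue minus circulating ex-Tcirc, of each compared member (points) of 12 gene lists, with the number of members in brackets, the list median as a red bar and the median of all 1605 genes (-0.26) as a dashed line. The histone points all lie left of 0, small nuclear and nucleolar RNAs lie right of 0 except 1 (Snord12), and the other lists straddle the dashed line.

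Short structured RNAs were listed higher in tissue. All 14 of the compared box H/ACA snoRNAs and Cajal body RNAs (of 49) had a positive log2 difference (13 after rescaling to TPM), with a median of 2.49, and 12 of 14 were higher without overlap, against 18.3% of all genes. Among box C/D snoRNAs 8 of 98 were compared, 7 with a positive difference, and the median was 2.34. The exception was Snord12, at 37.0 and 82.7 FPKM in tissue and 20.8 and 723 in circulating cells. All 18 of the compared small nuclear and other abundant structured RNAs (of 26) had positive differences, with a median of 2.03, and 13 of 18 were higher without overlap. For Rn7s1, Rn7s2, Rn7s6 and Rny1, circulating replicate 1 lay above both tissue libraries, so their sign came from replicate 2. Of all 1605 genes, 636 had a positive difference. By the length of the gene, the box H/ACA RNAs corresponded to a median of 15.7 fragments in circulating replicate 1 and 1.74 in replicate 2, where 6 of 14 lay under 1 fragment, and the box C/D RNAs to 34.7 and 4.09, with 3 of 8 under 1 in replicate 2. The medians of the snoRNA lists are therefore not read as measured folds. With no minimum mean and zeros allowed, 48 of 49 box H/ACA and 75 of 94 box C/D RNAs were positive, and so were 31088 of all 36301 names. The negative shares were 2.04%, 20.2% and 14.4%, so box C/D RNAs were positive less often than names in general. Their median log2 difference was nonetheless larger, 3.34 against 0.90 over all 36301 names. These medians include zeros of the shallow circulating libraries and are not read as folds either. Among the small nuclear and other abundant RNAs the largest log2 difference was that of Rnu3a, at 1459 and 1210 in tissue and 542 and 19.0 in circulating cells, and the smallest Rn7sk, at 15456 and 15333 against 13928 and 8689. The copies Rnu3b1 to Rnu3b4 had the same value, 103 FPKM, in circulating replicate 2 and share fragments. SnoRNAs took 2.28% and 1.78% of all FPKM in tissue and 0.571% and 0.596% in circulating cells.

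Snord21 was at 1807 and 1396 FPKM in tissue and 3.77 and 22.6 in circulating cells, and Snord57 at 327 and 446 against 1.01 and 4.004. They had the largest log2 differences of the snoRNAs, 7.23 ± 0.87 and 6.91 ± 0.58 (adjusted p = 0.191 and 0.174 by limma on 4 libraries). These 2 reached the mean of 20 FPKM through the tissue libraries alone, so they had to be higher in tissue. By the length of the gene, Snord21 corresponded to 469 and 868 fragments in tissue and 0.353 and 0.979 in circulating cells, and Snord57 to 56.8 and 186 against 0.0637 and 0.117. Both circulating values were thus below a single fragment, and the fitted difference is no bound. Set against an arbitrary floor of 3 fragments in each circulating library, the lower tissue value was 20.2-fold higher for Snord21 and 3.17-fold higher for Snord57. The floor was a choice and the fragment scale is approximate, so these folds are no bounds either. Snora7a, with 220 and 221 FPKM in tissue and 28.2 and 15.4 in circulating cells (3.34 ± 0.44, adjusted p = 0.191 by limma), rested on 3.62 and 0.917 fragments in circulating cells.

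The host genes of the snoRNAs had smaller log2 differences in most cases. Of 22 snoRNAs placed by RefSeq, 20 lay within the span of a single other gene and 11 of those had a compared host (Rps3 holds 2 of them). In 10 of these 11 the snoRNA had the higher log2 difference, with a median of 2.55 for the snoRNAs and -0.02 for the hosts. Of the 11, Snord21, Snord57, Snora65, Snora68 and Snora33 lay under 1 fragment in at least 1 circulating library. The snoRNA median is therefore not read as a measured fold. Snord21 lies in Rpl5, a ribosomal protein gene at 122 and 154 FPKM in tissue and 183 and 113 in circulating cells. Snord57 lies in Nop56, which encodes a core protein of box C/D particles and was at 38.6 and 62.8 in tissue and 12.0 and 17.4 in circulating cells, without overlap. Nop56 reached the minimum mean through tissue alone and so had to be higher there. The log2 differences of the hosts ran from -1.07 to 1.70. Whether length, depth or library preparation contributes to the values of such short RNAs was not tested, and the circulating libraries are the shallower pair.

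Ex-TRM cells, by their name of tissue-resident memory origin, give a second tissue against circulating comparison in separate libraries. It rests on 2 tissue libraries and 1 usable circulating library. Among the 115 genes with a 2-fold gap below circulating ex-Tcirc, 103 (89.6%) also had a negative difference in ex-TRM, where 60.5% of all 1605 did. Among the 141 above it, 107 (75.9%) were also positive in ex-TRM, where 39.5% of all were. The sizes differed, with medians of -2.32 in ex-Tcirc and -0.94 in ex-TRM for the first set, and of 2.71 and 0.27 for the second. The ex-Tcirc values chose both sets and are given as a description. A test of the difference between the 2 location effects (interaction term of limma over 7 libraries) called 0 of 1605 genes. The lowest adjusted p was 0.910, and 67 genes lay under 0.05 before adjustment.

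In ex-TRM, whose libraries did not enter the filter of compared genes, histone genes were negative for 35 of 35, where 60.5% of all genes were. Their median was -2.82 against -2.78 in ex-Tcirc. This rests on 1 circulating ex-TRM library and on copies that may share fragments. In ex-TRM, Klf2 was at 31.0 and 28.4 FPKM in the tissue libraries and 174 in the circulating one, near its ex-Tcirc levels. Il2ra was at 89.3 and 69.3 in the tissue libraries of ex-TRM against 50.5 in the circulating one, so its circulating level lay above that of ex-Tcirc, with an interaction of 1.66 (adjusted p = 0.910 by limma). Small nuclear and other structured RNAs kept the sign in 8 of 18, with a median of -0.15 against 2.03 in ex-Tcirc, and box H/ACA snoRNAs in 9 of 14, with 0.26 against 2.49. The circulating ex-TRM library held about 2940000 fragments, more than either circulating ex-Tcirc library. Snord21 was at 1507 and 871 against 375 in ex-TRM, and all 3 of these values exceeded those of circulating ex-Tcirc.

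**Figure D5:**
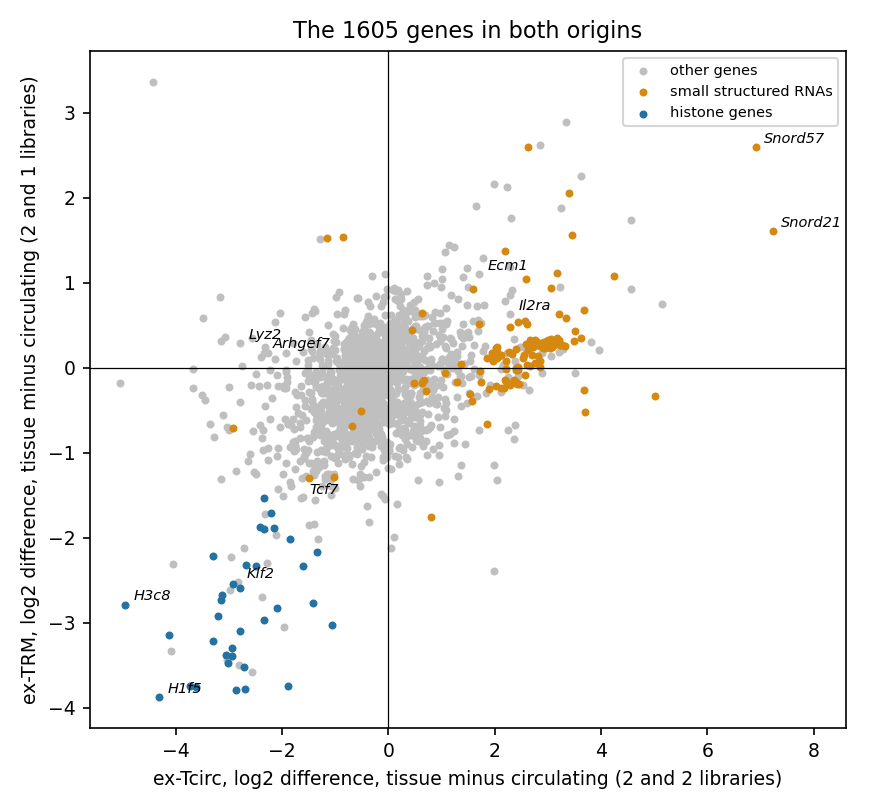
Log2 difference, tissue minus circulating, of the 1605 genes in ex-Tcirc (horizontal) and in ex-TRM (vertical, 1 circulating library), with histone genes in blue, short structured and ribosomal RNAs in orange and others in grey. Histone genes lie low in both origins, with medians of -2.78 and -2.82, whereas most structured RNAs are right of 0 but close to 0 on the vertical axis.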

How the data were processed

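Per the labels' protocols, RNA of sorted cells went into a strand-specific kit and was read in pairs. The authors deposited FPKM, 1 value per gene and library, per the file headers. HISAT2 2.2.1, StringTie 3.0.1 and the build mm10 are among the items of the submitters' processing notes. Annotation and strand setting: not given in the sources used here. FPKM were summed per gene name. A file of FPKM holds no counts, so log2(FPKM + 1) of the 4 libraries was tested with limma 3.58.1 (R 4.3.3) and an intensity trend, and the log2 differences understate changes of low genes. The pseudocount was 1.

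Depth was estimated from the pile-up of FPKM times RefSeq length (GRCm38.p6) over genes of 200 to 2000 bases, where single fragments give the lowest step. This scale is approximate, and it gives fragment equivalents on RefSeq spans. Of the 1605 compared names 1465 matched RefSeq by symbol or synonym. No library held values identical to another. The fits were tested on simulated data, where the fit over 7 libraries made more false calls than its threshold allows.

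Members and gene lists were chosen with earlier results of these data known. Named genes were the 5 per direction with the smallest p, no overlap and no predicted symbol, list members that were called, and 27 genes fixed by name, of which 13 could be compared and 1 is not reported here. Replicate numbers were not used as pairs, since the deviations of same-numbered libraries correlated with r = -0.05 over only 2 pairs. The alternatives were other pseudocounts, minimum means, scalings, sets of libraries, library weights, no trend, the highest value per name, a replicate block, leaving out each library and, added after seeing the data, protein-coding names only. The 14 ATAC-seq samples were not analysed here.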

Additional observations from a re-analysis of the deposited data

How the results depend on the processing

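The count of called genes was 0 in the 4 libraries and stayed 0 under both other pseudocounts, the other minimum means, zeros allowed, no filter, the 3 scalings, 8 libraries, no trend, the highest value per name, protein-coding names only (added after seeing the data) and the replicate block, which also gave 0 calls with the replicate numbers as pairs. It became 15 over 7 libraries and 3 with library weights (Snord21, Snord57 and H3c8). Leaving out a library gave 0 to 842 calls: 0 without either tissue replicate, 842 without circulating replicate 1 and 537 without circulating replicate 2. In the last 2 fits a lone circulating library is assumed to vary like the tissue pair, so the spread between the circulating libraries no longer enters. For the difference between the ex-Tcirc and ex-TRM effects, the range was 0 to 664 calls, with 664 without circulating ex-Tcirc replicate 1, and 0 with the replicate block. The genes with a 2-fold gap below circulating cells, 115 as deposited, numbered 73 after median-of-ratios scaling and 205 after rescaling to TPM, while those above numbered 113 to 172. Of the 17 genes named by p or called over 7 libraries, 17 kept their direction under every alternative that gave them a value. Their choice largely fixed this count in advance. Their groups did not overlap, so leaving out a library could not reverse them, and several other alternatives changed the test but not the estimate. Of the 13 genes fixed by name, 8 kept their direction. Exceptions after rescaling to TPM and to the protein-coding sum were Cd69 (-0.21 and -0.11), Rgs1 (-0.35 and -0.25) and Jun (-0.22 and -0.13). Nr4a1 was at 0.22 after median-of-ratios scaling. Leaving out each library gave ranges of -0.12 to 0.63 for Cd69, -0.045 to 0.27 for Rgs1, -0.069 (without circulating replicate 1) to 2.14 for Gata3, -0.49 to 0.47 for Nr4a1 and -0.20 to 0.68 for Jun. The cause was not tested. Genes at few fragments in circulating replicate 2, the shallowest library, limit the precision throughout.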
